A study of Rattus norvegicus with 2 samples.

Results

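Tight junction genes and claudins were followed in the RNA of rat urine. Members were the number-only gene IDs of the deposited table (NCBI gene IDs of the rat) whose symbol is Cldn1, Cldn2, Cldn3, Cldn4, Cldn7, Cldn8, Cldn10, Ocln, Tjp1 or F11r. All 10 were found among 16484 number-only genes and 113011 features of every kind. The study had 2 urine libraries, 1 per group, from Sprague Dawley rats with a stated age of 8 weeks (post natal day 56 in the labels). In the library labelled UUO, which stands for unilateral ureteral obstruction, the right ureter had been ligated, and the kidney above such a ligature becomes fibrotic. The library labelled WT came from sham surgery, the same operation without the ligature. Urine was taken 2 weeks after surgery, in both groups from the ureter through a catheter per the study's methods, so that it had not passed through the bladder. The number of rats behind each library is not given in the sources used here.

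With 1 library per group no difference could be set against a spread between replicates, and each value describes these libraries and not the conditions. Levels are FPKM, in which the fragments of a gene are divided by its length in kilobases and by the fragments of the library, so that they can be set side by side between genes. The libraries were identified by abbreviated names in the table and by the headings of the study's published urine lists. The names alone do not settle this, and every direction would be opposite if they were exchanged. In urine, fewer cells of a type and less RNA per cell cannot be told apart. The study's methods also describe a spin of the urine before freezing and again after thawing. How much of the RNA came from intact cells is not given.

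Tight junctions are the belts that close the space between neighbouring epithelial cells near their free surface. Claudins are small membrane proteins whose extracellular loops either seal this space or form pores for chosen ions, and each segment of the nephron carries its own set of them. Occludin (Ocln) and junctional adhesion molecule A (F11r) are further membrane proteins of the belt, and ZO-1 (Tjp1) is the scaffold that ties them to actin inside the cell. Along the kidney, claudin-2 and claudin-10 are known as pore-forming claudins of the proximal tubule and the thick ascending limb, while claudin-3, claudin-4, claudin-7 and claudin-8 belong to distal segments and the collecting duct. The urothelium that lines the ureter also makes tight junctions.

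Levels are first given by the entry of the gene ID itself (the gene entry), and the order by locus sums, given below, was another. By gene entries the scaffold and the adhesion molecule were the most abundant of the 10 genes in WT urine. In UUO urine these were the adhesion molecule and claudin-7. In WT urine Tjp1 had an FPKM of 22.9 and F11r of 17.9, followed by Cldn4 with 8.90, Cldn7 with 5.92, Cldn3 with 3.51 and Cldn2 with 2.76. Cldn1, Cldn8, Cldn10 and Ocln were listed at 0 there. In UUO urine F11r was first with 21.4, then Cldn7 with 19.0, Tjp1 with 12.0, Cldn4 with 9.38, Ocln with 5.42, Cldn10 with 4.73, Cldn3 with 3.78, Cldn2 with 3.27 and Cldn1 with 0.456, and Cldn8 was again listed at 0. The order therefore differed at Tjp1, Cldn7, Ocln and Cldn10, and with 1 library each no step between neighbours in it can be set against a spread. At FPKM of at least 1, WT urine held 6 of the 10 genes and UUO urine 8. The shares of all number-only genes detected were 47.3% for WT and 56.3% for UUO urine.

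**Figure D1:**
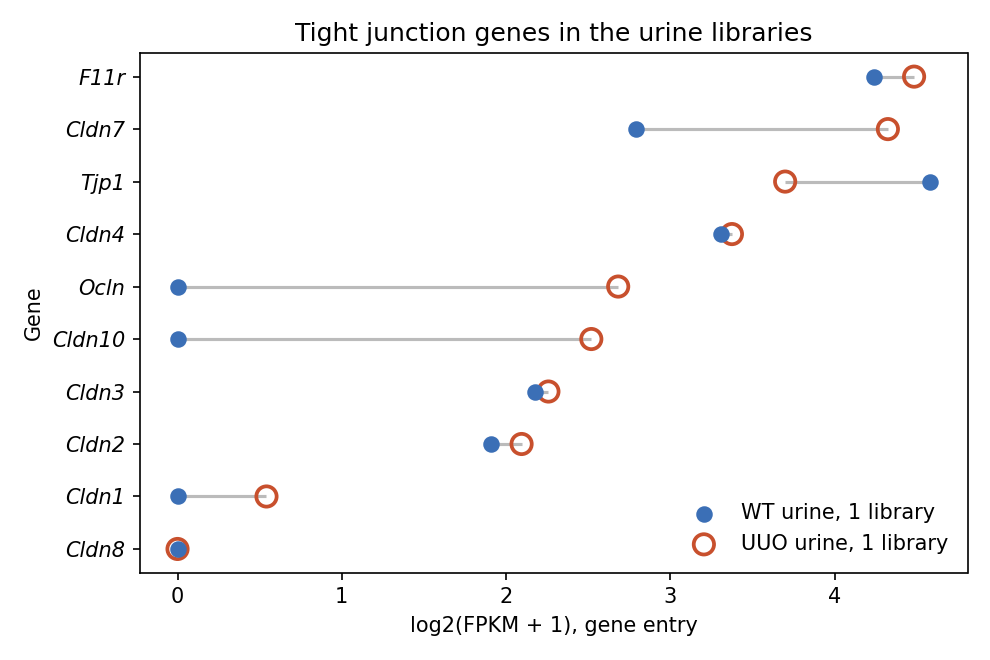
Level of each gene on the log2(FPKM + 1) scale, ordered by the UUO library, with filled blue points for the WT and open orange circles for the UUO library (1 library each, no error bars possible). The points of Cldn2, Cldn3 and Cldn4 nearly coincide, Cldn7 lies higher in UUO and Tjp1 higher in WT urine, and Cldn10 and Ocln lie at 0 in WT urine only.

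A difference was taken as log2(FPKM + 1) in UUO minus that in WT urine, a scale that understates the change of low genes, and a gene was counted as higher or lower when the difference was at least 1 in size and its FPKM at least 1 in either library. By this limit 3 of the 10 genes were higher in UUO urine (Cldn7, Cldn10 and Ocln) and 0 were lower, 5 stayed within the limit and 2 (Cldn1 and Cldn8) were below FPKM 1 in both libraries. Of the 9853 number-only genes that passed the same filter, 25.7% were higher and 36.5% lower by the same rule. The median difference was 0.21 over the 8 genes that passed the filter and -0.51 over all 9853. Cldn10 and Ocln passed only through the UUO library, where they are high, so the count and the median are descriptions only.

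**Figure D2:**
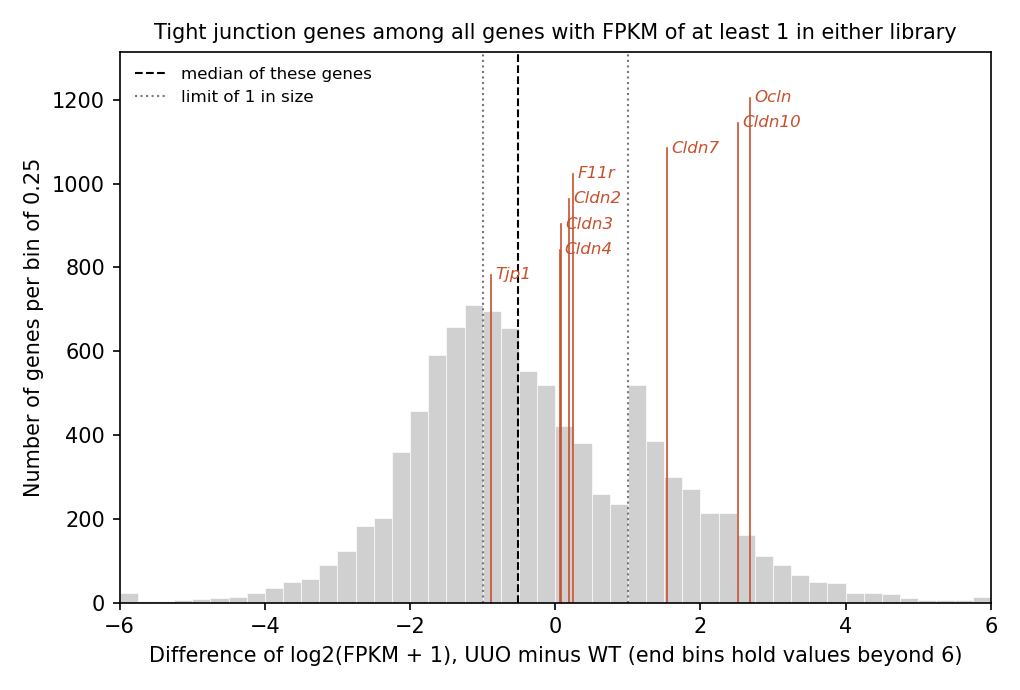
Histogram of the difference of log2(FPKM + 1), UUO minus WT, for the 9853 number-only genes at FPKM 1 or more in at least 1 library, with orange lines for the 8 tight junction genes among them. Tjp1 lies left of the dashed median of -0.51, the other 7 lie right of it, and 3 lie beyond the dotted limit of 1.

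The zero of this scale is not where most genes lay by their gene entries. This offset depended on the entries used. With FPKM summed over all entries of a locus, as done below, the median difference over 12310 genes was -0.10, against -0.51 over the 9853 by gene entries. Over the 7218 number-only genes at FPKM 1 or more in WT as well as in UUO urine the median difference was -0.81, and rescaling the UUO values by the median ratio (a factor of 1.91) brought the median to 0.00. Relative to the median of -0.81, Tjp1 stood at -0.07, Cldn4 at 0.88, Cldn3 at 0.89, Cldn2 at 0.99, F11r at 1.06 and Cldn7 at 2.34. So Tjp1, the 1 gene with a lower FPKM in UUO urine, lay close to the median of the genes detected in both libraries, and these 5 membrane protein genes lay above it. After the rescaling F11r also passed the limit, with a difference of 1.15, which made 4 genes higher and 0 lower, against 40.7% higher and 14.9% lower among all genes on that scale.

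Cldn7 had the highest UUO-to-WT ratio among the genes above 0 in both libraries. This claudin (gene ID 65132, chromosome 10, 56321546 to 56323750 on rn5) is found along the basolateral membrane as well as at the junction. It went from an FPKM of 5.92 in WT to 19.0 in UUO urine, a ratio of 3.22 and a difference of 1.53. Within a library its place moved from above 62.6% of all number-only genes in WT to above 88.1% in UUO urine, a measure that no scaling of a library can change. Its share of the summed FPKM of the 10 genes was 9.57% in WT and 24.0% in UUO urine.

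Cldn10 and Ocln were the genes listed at 0 in WT and detected in UUO urine. Cldn10 (gene ID 290485, chromosome 15, 107450002 to 107539545) reached 4.73 and Ocln (gene ID 83497, chromosome 2, 49686706 to 49736904) of 5.42 in UUO urine. No fold is given against a value of 0. Such a pattern was common, since 19.3% of the 9853 genes were listed at 0 in WT and at FPKM of at least 1 in UUO urine. By the steps in the FPKM values, 3 fragments, the limit that a count of 0 allows, would stand for an FPKM of 1.63 on a transcript of 1000 bp in the WT library. The transcript lengths behind the values of Cldn10 and Ocln were not used here, so their own limits are not given.

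Of the 4 claudins detected in both libraries, Cldn2, Cldn3 and Cldn4 were nearly level on the deposited scale, unlike Cldn7. Cldn4 (gene ID 304407) stood at 8.90 in WT against 9.38 in UUO urine, a ratio of 1.05. Cldn3 (gene ID 65130) had 3.51 and 3.78, a ratio of 1.08. Cldn2 (gene ID 300920), the cation and water pore of the proximal tubule, had 2.76 and 3.27, a ratio of 1.18. All 3 genes lay higher in UUO urine relative to the median gene.

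The Cldn3 entry was short enough, at 1473 bp, to read fragments from it. Its FPKM came to 9.99 fragments in WT and 12.0 in UUO urine by the fitted totals, that is to 10 and 12 fragments. The exact Poisson 95% intervals were 4.80 to 18.4 fragments in WT and 6.20 to 21.0 in UUO urine, or FPKM of 1.68 to 6.46 and 1.95 to 6.61. The intervals overlap widely, and cover counting error only. They do not cover how reads were divided between this entry and another entry of its locus, given below. A difference of the size seen at the Cldn3 entry was not detectable at this depth.

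F11r and Tjp1 went apart. F11r (gene ID 116479, chromosome 13, 94453381 to 94477357), an immunoglobulin-like adhesion protein, stood at 17.9 in WT against 21.4 in UUO urine, a ratio of 1.20. Tjp1 (gene ID 292994, chromosome 1, 127243075 to 127307192) had 22.9 and 12.0, a ratio of 0.523 and a difference of -0.88, short of the limit. By gene entries Tjp1 held 37.0% of the summed FPKM of the 10 genes in WT and 15.1% in UUO urine. The 7 claudins together went from 34.1% to 51.2%, or from an FPKM of 21.1 to 40.7, a rise that the locus sums below did not keep. By its place in the library Tjp1 lay above 81.9% of genes in WT and above 80.8% in UUO urine, and F11r above 77.9% and above 89.5%.

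Cldn1, a sealing claudin known from the parietal layer of Bowman's capsule and from skin, was listed at 0 in WT and at 0.456 in UUO urine. Cldn8, a claudin of the collecting duct, was listed at 0 in both libraries, as were 26% of all number-only genes.

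Each of the 10 listed loci holds 2 to 7 entries of the table, so that the reads of a locus may be divided among them. These are entries of a noncoding RNA database (NONRATG for genes, NONRATT for transcripts) and, at Cldn3, an assembled feature (XLOC). The table gives no strand for them. Among all number-only genes 93.3% share a locus in this way. FPKM was therefore also summed over all entries of a locus, which adds values of entries of unequal length and may count an RNA again where a NONRATG entry repeats a NONRATT entry.

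At Ocln the sum removed the difference. The entry NONRATT030828 stood at 5.71 in WT against 0.356 in UUO urine, the reverse of the Ocln entry. Summed over the 7 entries, the locus had 5.71 in WT and 6.87 in UUO urine, a ratio of 1.20 and a difference of 0.23. The zero of Ocln in WT urine is thus a zero of the gene entry and not of its locus. Such cases were a minority. Of the 1903 number-only genes listed at 0 in WT and at FPKM of at least 1 in UUO urine, 56.1% had a locus sum of 0 in WT urine too. For 23.8% that sum was at least 1, as at Ocln.

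At Cldn7 the sum narrowed the difference. Its locus holds NONRATG004661, at 5.33 in WT and 4.05 in UUO urine, and NONRATT008967, at 5.27 and 4.03. The sums were 16.5 in WT and 27.1 in UUO urine, a ratio of 1.64 and a difference of 0.68. Without the NONRATG entry the sums were 11.2 and 23.1, with a difference of 0.98, just under the limit.

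Cldn10 kept its pattern, with 4 entries that all were at 0 in WT urine and summed to 5.40 in UUO urine. Tjp1 and F11r kept theirs as well, since the gene entry held at least 92.7% of the locus sum in both libraries. The Tjp1 locus had 23.0 in WT and 12.7 in UUO urine. The F11r locus had 19.3 and 22.8. The Cldn1 locus was at 0 in WT and at 1.07 in UUO urine, which just passed both limits with a difference of 1.05.

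The Cldn3 locus (chromosome 12, 23849258 to 23850731) went the opposite way to its gene entry. The assembled feature XLOC_008769, which the table itself ties to the Cldn3 gene ID, went from an FPKM of 112.5 in WT to 2.00 in UUO urine. With it the locus had 116 in WT and 5.78 in UUO urine, a ratio of 0.0498 and a difference of -4.11. The Cldn3 entry held 3.03% of the locus sum in WT and 65.5% in UUO urine. It was the 1 assembled feature that the table ties to any of the 10 genes.

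At Cldn8 and Cldn4 the noncoding entries held most of the locus. At Cldn8 (gene ID 304124, chromosome 11, 32145318 to 32147690) NONRATG007114 had 4.33 in WT and 6.86 in UUO urine, NONRATT013636 had 4.30 and 6.56, and the locus sums were 8.63 and 13.4, a ratio of 1.55. Cldn8 is thus at 0 as a gene entry but not as a locus. At Cldn4 (chromosome 12, 26761479 to 26763278) NONRATG007710 had 174 in WT and 201 in UUO urine. The gene entry held 4.86% and 4.46% of sums of 183 and 210, a ratio of 1.15.

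By locus sums 2 genes were higher (Cldn1 and Cldn10) and 1 was lower (Cldn3), against 32.3% higher and 27.5% lower among 12310 number-only genes. Cldn10 was the gene counted as higher both by its entry and by its locus sum. Its count on the rescaled libraries adds nothing to this. Each rescaling raised the UUO values alone, which could only increase its difference.

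**Figure D3:**
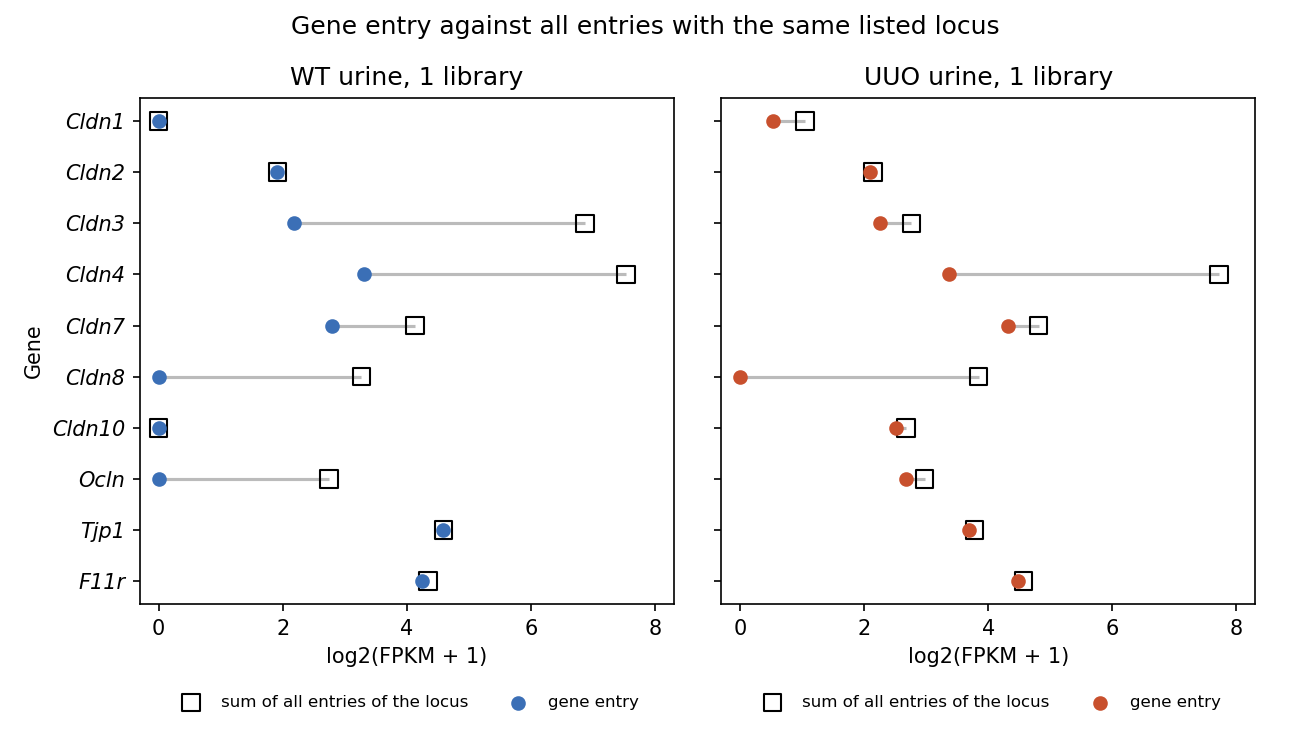
Level of each gene on the log2(FPKM + 1) scale as its gene entry (filled points) and as the sum of all entries with the same listed locus (open squares), for the WT library on the left and the UUO library on the right. The squares leave the points by far at Cldn4 and Cldn8 in both libraries and at Cldn3 and Ocln in WT urine, while Cldn2, Cldn10, Tjp1 and F11r keep their place.

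The promoters of the 3 genes counted as higher by their entry are shown for the sequence in front of them. They run from 250 bases before to 50 bases after the start that RefSeq lists on GRCr8, 5′ to 3′ on the strand of the gene. Such windows, called promoters here, were found for 8 of the 10 genes, all but Cldn2 and Cldn4. Whether transcription begins at the listed start in the cells behind these libraries was not tested. Capitals mark CAGGTG or its reverse complement CACCTG, a form of the E-box CANNTG that repressors of the Snail family are known to bind in epithelial junction genes. Snail factors were not measured here, and a match is a run of letters and not a shown binding site.

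The sequences are those of Cldn7 (chr10:55188420-55188719, plus strand), Ocln (chr2:33441149-33441448, minus strand) and Cldn10 (chr15:102269608-102269907, plus strand).
Cldn7: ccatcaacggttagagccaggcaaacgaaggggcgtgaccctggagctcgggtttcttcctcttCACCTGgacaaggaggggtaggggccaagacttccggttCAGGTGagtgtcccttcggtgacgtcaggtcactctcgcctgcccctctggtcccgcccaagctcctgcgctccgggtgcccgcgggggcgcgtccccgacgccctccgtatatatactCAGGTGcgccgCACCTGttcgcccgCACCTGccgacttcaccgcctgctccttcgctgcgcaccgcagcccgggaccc
Ocln: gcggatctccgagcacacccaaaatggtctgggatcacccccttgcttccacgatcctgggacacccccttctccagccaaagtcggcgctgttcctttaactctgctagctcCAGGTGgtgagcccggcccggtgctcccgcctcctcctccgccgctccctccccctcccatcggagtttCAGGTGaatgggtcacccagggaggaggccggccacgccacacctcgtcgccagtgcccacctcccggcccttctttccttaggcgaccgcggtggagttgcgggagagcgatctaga
Cldn10: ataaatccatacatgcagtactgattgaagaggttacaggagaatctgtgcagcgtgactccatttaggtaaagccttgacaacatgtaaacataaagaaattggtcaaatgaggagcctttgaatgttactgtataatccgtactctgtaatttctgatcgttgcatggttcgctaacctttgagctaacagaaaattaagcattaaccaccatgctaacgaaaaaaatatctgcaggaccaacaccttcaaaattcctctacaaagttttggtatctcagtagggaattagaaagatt

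Cldn7 held 5 such matches, at bases -186, -147, -28, -17 and -3 from the start, counted at their first base. All 5 of its CANNTG matches were of this form. Of 27457 RefSeq promoters of the same length, 18.7% held at least 1 match on either strand and 3 held at least 5. Ocln held 2, at bases -137 and -68, as did 2.49% of all promoters with at least 2. Cldn3 and F11r held 1 each, and Cldn1, Cldn8, Cldn10 and Tjp1 none. The Tjp1 window may lie inside its gene, so that its lack of a match need not describe its promoter. The wider form CANNTG was in all 8 promoters and in 71.6% of all promoters. The Cldn7 and Ocln promoters were also rich in G and C (67.0% and 65.3%), and that of Cldn10 was not (37.0%). Cldn10, counted as higher by its entry, held no match, and F11r, within the limit on the deposited scale, held 1. A link between matches and levels was not tested.

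Other genes of the junction were taken from 3 lists, of which 41 of 52 genes were in the table. By their own entries 6 were higher and 8 lower in UUO urine, 15 stayed within the limit and 12 were below FPKM 1 in both libraries. Among all 9853 genes past the filter 25.7% were higher and 36.5% lower. Their median difference was -0.66 over the 29 genes past the filter on low values. After the median-ratio rescaling the same lists gave 12 higher and 1 lower, and a median of 0.44, so that their direction rests on the scaling. On that scale 40.7% of all genes were higher and 14.9% lower.

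The other claudins were mostly below FPKM 1. Of 14 in the table, 10 were below FPKM 1 in both libraries, among them Cldn5, the claudin of endothelium, which was listed at 0 in both. Cldn23 had 21.8 in WT and 24.0 in UUO urine, above each of the 7 claudin members in both libraries by gene entries. Cldn12 had 4.79 and 3.43. Cldn19 had 0.322 in WT and 6.75 in UUO urine, a ratio of 21.0, and Cldn16 was listed at 0 and at 3.13. The WT value of Cldn19 lies below the FPKM of 1 fragment on 1000 bp, 0.542, so its ratio is uncertain. Claudin-16 and claudin-19 together form the pore for magnesium and calcium in the thick ascending limb, where claudin-10 also serves. Summed over its locus, Cldn19 had 0.322 and 7.07, and Cldn16 was at 0 in WT and at 3.68 in UUO urine.

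The other membrane proteins of the junction went both ways. Of 9 in the table, 2 were higher (Marveld2 and Esam), 1 was lower (Cxadr) and 4 stayed within the limit, with a median difference of -0.13, or 0.77 after the median-ratio rescaling. Esam was counted through its gene entry, at 1.12 in UUO urine, while its locus sums were 3.16 in WT and 1.63 in UUO urine, the opposite direction. Cxadr, an adhesion protein that also serves as the coxsackievirus and adenovirus receptor, had 7.62 in WT and 2.10 in UUO urine, a ratio of 0.276. Its locus sums were 7.62 and 5.35, with a difference of -0.44. Marveld2, which encodes tricellulin of the contacts between 3 cells, was listed at 0 in WT and at 3.10 in UUO urine. Crb3, Cldn23 and Marveld3, in this order, had the pair of levels nearest to that of F11r among 51 listed genes. Their distances were 0.26, 0.32 and 0.77 on the log2(FPKM + 1) scale over the 2 libraries, and with only 2 libraries such nearness is slight information.

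The scaffolds and polarity proteins were spread around the median of genes detected in both libraries, where Tjp1 also lay. Of 18 genes 2 were higher, 7 lower and 9 within the limit, and the share of all genes counted as lower was 36.5%. A difference below 0 was seen in 14 of the 18. Their median difference of -0.87 lay next to the median of -0.81 over genes detected in both libraries. Tjp3, the ZO-3 scaffold, had 41.5 in WT and 30.7 in UUO urine, within the limit, though by its locus sum it was lower, with a difference of -1.17. Pals1, a scaffold of the Crumbs polarity complex, had 41.0 in WT and 10.1 in UUO urine, a ratio of 0.247 and a difference of -1.91. It was the 1 scaffold still counted as lower after the median-ratio rescaling, at -1.04.

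The paracingulin gene Cgnl1 had 96.8 in WT and 37.4 in UUO urine. The membrane-associated scaffold Magi3 had 39.2 and 14.8, and its relative Magi1 had 25.1 and 10.5. Prkci, the atypical protein kinase C of the Par polarity complex, had 39.8 and 18.6. Tjap1, a junction-associated protein, had 16.4 and 6.46. Sympk, which encodes symplekin, a protein of the junction plaque that also works in the nucleus in RNA 3′ end formation, had 32.2 and 12.5. Of the 8 named genes counted as lower, 4 stayed so by their locus sums (Cgnl1, Magi3, Pals1 and Prkci).

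The 2 scaffold list genes counted as higher were Ybx3 and Pard6a. Ybx3 encodes a Y-box protein that binds ZO-1 and nucleic acids, and had 114 in WT and 594 in UUO urine, a ratio of 5.19. The difference was 2.37 by the gene entry and 2.36 by the locus sum. Pard6a was listed at 0 in WT and at 1.21 in UUO urine.

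**Figure D4:**
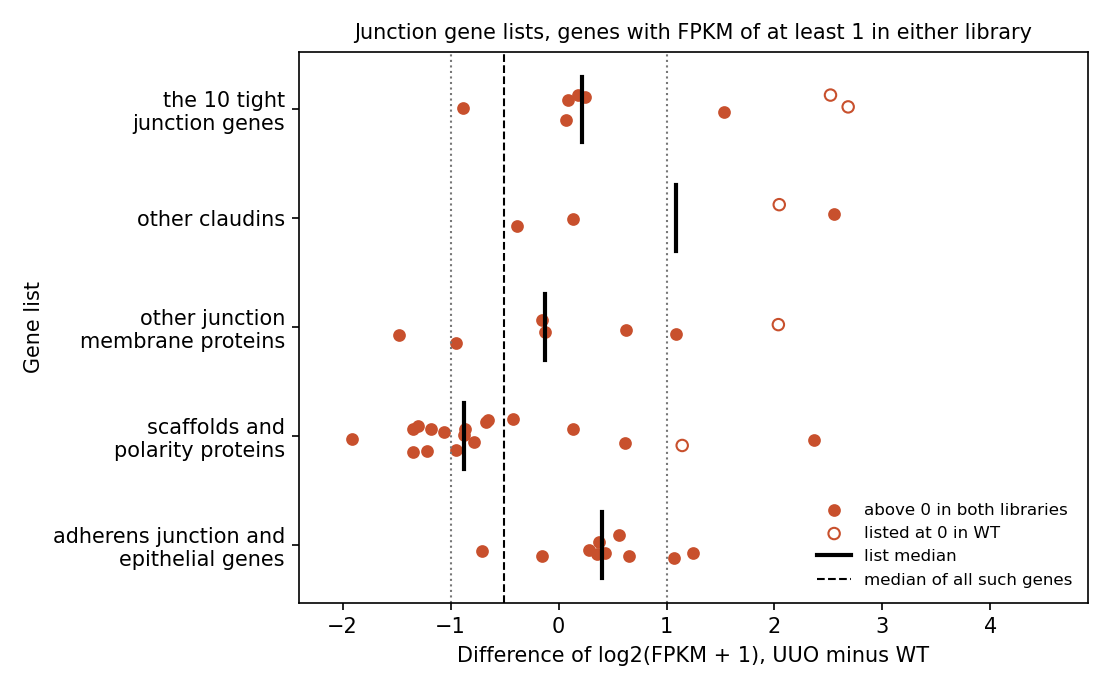
Difference of log2(FPKM + 1), UUO minus WT, for genes at FPKM 1 or more in at least 1 library (points, open where the WT library lists 0), by list, with the list median as a black bar and the median of all 9853 such genes, -0.51, as a dashed line. The scaffolds lie left of the dashed line for the most part, with Ybx3 at 2.37 far to the right, and the 10 adherens junction and epithelial genes lie between -0.71 and 1.25.

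By gene entries, genes of adherens junctions and simple epithelia were present in both libraries at higher levels than any of the 10 tight junction genes, save Cdh16. All 10 of them were detected in both, 2 were higher and 0 lower, and the median difference was 0.40. The shares over all 9853 genes were 25.7% higher and 36.5% lower. Cdh1, which encodes E-cadherin, had 44.8 in WT and 60.5 in UUO urine, and Epcam had 72.5 and 107. Cdh16, a cadherin of kidney tubules, had 4.48 and 12.0, and Krt19 had 357 and 752.

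Markers of the cells that could shed these genes moved in different directions. Their counts and sums are by gene entries, by which 25.7% of all 9853 genes past the filter were higher and 36.5% lower. Of the same 9853 genes 19.3% were listed at 0 in WT and at FPKM of at least 1 in UUO urine. Urothelium markers were abundant, with 5 of 6 detected in WT and all 6 in UUO urine, and their summed FPKM went from 806 in WT to 1112 in UUO urine. Of these 6, 2 were higher and 1, Krt20, was lower, at 26.4 and 12.5, and Upk1b had 216 in WT and 136 in UUO urine. Krt5, counted as higher, was listed at 0 in WT and at 51.8 in UUO urine by its gene entry. Summed over the 25 entries of its locus, Krt5 had 317 and 346, a difference of 0.13. Without NONRATG entries its sums were 5.88 and 68.9, so that its count rests on the entries used. All 5 proximal tubule markers were lower in UUO urine, with sums of 98.2 and 14.9, while Cldn2 had 2.76 and 3.27. Of the 5 thick ascending limb markers, which include Cldn16 and Cldn19, 3 were higher and 0 lower, with sums of 43.8 and 48.2. Without these claudins the sum of the other 3 went the opposite way, from 43.5 in WT to 38.3 in UUO urine, with 1 higher and 0 lower. Umod had 30.05 and 26.3 and Slc12a1 13.5 and 9.25, both within the limit. Kcnj1 was listed at 0 in WT and at 2.83 in UUO urine and was counted as higher. The 7 collecting duct markers gave 2 higher and 2 lower, with sums of 262 and 281. Without Slc4a1, which red cells also express and which had 0.976 and 70.3, the sums were 261 and 210, the opposite direction. The 6 genes left gave 1 higher and 2 lower. Among them Atp6v1b1 had 90.1 and 30.7, by an entry that held 1.06% of its locus sum in WT urine, and Aqp3 had 85.1 and 121. The direction of this sum thus depends on the genes kept. The distal convoluted tubule markers gave 1 higher and 0 lower of 3, with sums of 25.2 and 49.6. Leukocyte markers gave 4 higher and 0 lower of 6, with sums of 77.5 and 105, and 4 of them were listed at 0 in WT urine. All 5 endothelium markers were listed at 0 in WT urine, and 3 of them, Cldn5, Cdh5 and Tek, in both libraries. The 4 podocyte markers gave 2 higher and 1 lower, with sums of 5.94 and 10.2. The part of these cells in the values of the tight junction genes was not tested.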

How the data were processed

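RNA was sequenced from 2 urine libraries, 1 per group. Per the study's methods and the submitters' processing notes, the authors removed adapter and low-quality reads and aligned read pairs to rn5 with TopHat2 2.0.9 on Bowtie2 2.0.6. They assembled transcripts with Cufflinks 2.1.1 and Scripture and compared the libraries with Cuffdiff 2.1.1. Ribosomal RNA removal and strand-specific preparation are described for kidney RNA. The authors deposited 1 FPKM value per feature and library, and which total scaled it is not stated. The table also holds the authors' fold changes, test statistics, p-values and q-values, which were not used. All columns of library values were assigned.

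Symbols came from the RefSeq table of GRCr8, which named 16329 of 16484 number-only IDs, and promoters from RefSeq on the same build. Differences of log2(FPKM + 1) were computed with Python 3.11.15, numpy 2.4.6 and pandas 2.3.3. A gene was counted at a difference of 1 (2-fold) when its FPKM reached 1 in at least 1 library. No test is possible with 1 library per group, and no p-value was computed. The calculation was tested on simulated data.

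Depth was read from steps in the FPKM values, using assembled features that share their locus with no other entry and span 400 to 1200 bp. The total and the length offset of each library were chosen so that most values became whole fragments, to a tolerance of 0.1. This held for 93.5% of 186 values at 2116000 fragments (WT) and for 99.5% of 3530 values at 2446000 (UUO). PCR copies were not told apart.

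Named genes are the 10 members, the 10 genes of the 3 wider junction lists that were counted as higher or lower with FPKM 5 or more in at least 1 library, and the 3 nearest to the member of the highest mean level. The values of 1 scaffold gene are not reported here. Further genes of these lists and of the marker lists were named after their values were seen. Members and lists were chosen with earlier results of these data known. Alternatives were other pseudocounts, limits, filters and scalings, and locus sums. Marker sums with genes left out were added after seeing the data.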

Additional observations from a re-analysis of the deposited data

How the results depend on the processing

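No paired analysis was possible because there is only 1 library for WT and 1 for UUO. A count was treated as moved when it left a range of 1.5 times around the reported one, and a difference when it crossed 0 or the limit of 1. A pseudocount of 10 left 0 of the 10 tight junction genes higher, and 1 higher and 2 lower among the wider junction genes. With locus sums 1 of the 10 was lower, and without NONRATG entries (an alternative chosen after seeing the data) 1 was higher and 1 lower. Cldn3 reversed to -4.11 in both, where the assembled feature enters the sum. A limit of FPKM 5 left 5 genes detected in UUO urine, and 2 wider genes higher. A 4-fold limit left 0 wider genes lower. Rescaling to equal sums gave 11 wider genes higher and 2 lower, to the same 75th percentile 11 and 1, and by the median ratio 12 and 1. Their median reversed to 0.15, 0.25 and 0.44, and the median of the 10 genes reached 1.05 by the median ratio. These rescalings multiply UUO values by 1.54, 1.66 and 1.91, which moves the difference of every gene above 0 in UUO urine upward. The difference of Cldn10, which no rescaling could lower, stayed above 1 under each alternative except the pseudocount of 10. Its FPKM of 4.73 in UUO urine did not reach the filter of FPKM 5, under which 2 of the 10 genes were higher.

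Depth limits the low genes. On 1000 bp 1 fragment stood for an FPKM of 0.542 (WT) or 0.496 (UUO).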

Other observations

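Locus sums moved other genes of the table too. Of the 2534 number-only genes counted as higher in UUO urine, 81.5% stayed so by their locus sum, and 10.9% had a difference of the opposite sign. Of the 3600 counted as lower, 77.9% stayed so and 2.44% had the opposite sign. Of the 4294 genes listed at 0 in both libraries, as Cldn8 was, 10.5% had a locus sum of at least 1 in both.

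Among the scaffolds and polarity genes, Tjp3, Pard3 and Prkcz were counted as lower by their loci and not by their entries. The Tjp3 locus, with 11 entries, had 136 in WT and 59.9 in UUO urine, a difference of -1.17. The Pard3 locus, with 9 entries, had 43.7 and 17.5, a difference of -1.27. The Prkcz locus, with 23 entries, had 91.7 and 35.2, a difference of -1.36. Cldn11, Cldn15 and Cldn17, each below FPKM 1 by its entry, were counted as higher by their loci, which were at 0 in WT and at 1.24, 1.57 and 2.45 in UUO urine. The Cldn20 entry was listed at 0 in both libraries, while its locus had 9.10 in WT and 2.42 in UUO urine. These genes were chosen after their values were seen.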
